A study of Mus musculus with 6 samples.

Results

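The genes described here encode the transporters and enzymes of glycolysis, the regulators of its flux, and the hypoxia-inducible factors (HIFs) with their hydroxylases and other known target genes. The rule names the genes and uses no expression value, although the list was drawn up with earlier results of these data known. They are 38 of the 15063 genes listed in the deposited tables. Of these, 24 act in glucose uptake, glycolysis or the control of its flux (3 transporters, 17 enzymes and 4 flux regulators), and 14 belong to the HIF system (4 factors and hydroxylases, and 10 other HIF targets).

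Expression was measured by RNA-seq in mesenchymal stem cells (MSCs), the stromal progenitors of bone, cartilage and fat, cultured from the bone marrow of mice aged 3 weeks. The 3 wild-type libraries (WT) were compared with 3 libraries from conditional Mapk7 knockouts (CKO). Mapk7 is the gene for the MAP kinase ERK5, and the comparison of genotypes addresses the part of Mapk7 in the choice between bone and fat lineages. WT library 2 came from passage 7 and the other 5 libraries from passage 5. All cultures were grown in α-MEM with serum, and no oxygen level or treatment besides passage is named. The Cre driver, the strain and the pooling of animals are not stated in the labels. WT libraries 1 and 2 carry 1 shared animal label, and for WT library 3 the description and the header of the file name different animals. Because separate litters or culture days are not stated for the libraries, p-values measure only the spread between these libraries, which may be technical.

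Glycolysis splits glucose into pyruvate and yields ATP without oxygen, and lactate dehydrogenase and lactate export let it run on when pyruvate does not enter mitochondria. HIF-1α and HIF-2α are transcription factor subunits that prolyl hydroxylases mark for destruction when oxygen is present, so the regulation best known for HIF-1α acts on the protein and not on its mRNA. In low oxygen the subunits persist, bind sites with the core ACGTG or GCGTG and raise transcription of glucose transporters, nearly every glycolytic enzyme, and genes for mitophagy, collagen hydroxylation and vessel growth. Bone marrow is a tissue of low oxygen, and marrow stromal progenitors are known to rely strongly on glycolysis.

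The libraries held 17351907 to 20689481 reads, and values are in RPKM, which scales reads by gene length and by the library total. Where 3 values are listed for a genotype, they are those of libraries 1, 2 and 3 in that order. Mapk7 itself was at 7.12, 6.76 and 9.07 RPKM in WT libraries 1 to 3 and at 5.59, 3.84 and 5.45 RPKM in CKO libraries 1 to 3, so its transcript was present in every library. Of 12 stromal marker genes, none was at 0 in all libraries, and their summed level was 5682 to 6709 RPKM across WT, against 3303 to 7045 RPKM in CKO. Their mean on the log2(RPKM + 1) scale was 6.41, 6.42 and 6.35 in WT libraries 1 to 3. In CKO libraries 1 to 3 it was 6.08, 5.49 and 5.80, below every WT mean, whereas the sums overlapped. The libraries differed in their make-up within each genotype and, for chondrocyte markers and the stromal mean, between genotypes. Over 7 chondrocyte markers the summed level was 671, 2490 and 687 RPKM in WT libraries 1 to 3. In CKO libraries 1 to 3 it was 143, 96.0 and 2.52 RPKM, below every WT sum. The summed level of 17 macrophage markers was 1109, 810 and 2364 RPKM in WT libraries 1 to 3 and 772, 445 and 3475 RPKM in CKO libraries 1 to 3. Lyz2, the macrophage lysozyme gene, made up most of these sums, at 1590 RPKM in WT library 3 and 2948 RPKM in CKO library 3. The mean of the 17 markers on the log2(RPKM + 1) scale was 4.01, 2.95 and 5.23 in WT and 3.86, 2.87 and 4.86 in CKO, and 11 of the 17 were highest in WT library 3 and 6 in CKO library 3. The summed level of 15 cell cycle genes was 54.3 RPKM in WT library 2, against 233 to 538 RPKM in the other 5 libraries. In CKO library 2 the deviation from the mean of the 6 libraries moved most with gene length. Its median on the log2 scale was 0.37 in the shortest of 5 length classes (206 to 1845 bases) and −0.37 in the longest (6151 to 56343 bases). The medians of the other libraries stayed between −0.18 and 0.19. Within those bounds they rose with length in CKO library 1 (−0.15 to 0.19), WT library 1 (−0.05 to 0.14) and CKO library 3 (−0.08 to 0.15). They fell in WT library 3 (0.09 to −0.07). Expression was measured in bulk, so fewer cells of a type and less RNA per cell cannot be told apart.

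Promoter sequences are shown for the 4 tested genes that exceeded their next highest library most in CKO library 3 (Egln3, Slc2a1, Bnip3 and Hk2) and for the 2 genes whose genotype groups did not overlap (Slc16a3 and Pgk1), because these carry the patterns described below. They were chosen after the expression values were seen. Each is the 250 bases before the RefSeq transcription start, 5′ to 3′ on the strand of the gene, from build GRCm38.p6. Capitals mark the hypoxia response cores ACGTG and GCGTG or, where the core lies on the other strand, their reverse complements CACGT and CACGC.
Egln3: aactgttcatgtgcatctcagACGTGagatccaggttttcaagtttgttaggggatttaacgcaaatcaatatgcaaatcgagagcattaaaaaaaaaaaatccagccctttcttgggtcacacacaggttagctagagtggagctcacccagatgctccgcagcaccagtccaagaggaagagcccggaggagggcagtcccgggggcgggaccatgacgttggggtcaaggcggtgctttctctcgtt
Slc2a1: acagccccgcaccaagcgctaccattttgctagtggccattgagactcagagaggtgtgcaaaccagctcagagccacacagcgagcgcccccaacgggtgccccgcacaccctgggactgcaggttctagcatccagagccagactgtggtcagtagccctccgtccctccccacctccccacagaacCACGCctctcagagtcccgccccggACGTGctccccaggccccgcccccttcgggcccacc
Bnip3: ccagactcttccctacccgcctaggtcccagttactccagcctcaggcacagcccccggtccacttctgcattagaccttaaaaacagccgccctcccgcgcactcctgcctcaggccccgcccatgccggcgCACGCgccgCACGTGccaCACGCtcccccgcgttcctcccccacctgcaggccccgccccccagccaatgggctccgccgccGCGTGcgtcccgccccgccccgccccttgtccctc
Hk2: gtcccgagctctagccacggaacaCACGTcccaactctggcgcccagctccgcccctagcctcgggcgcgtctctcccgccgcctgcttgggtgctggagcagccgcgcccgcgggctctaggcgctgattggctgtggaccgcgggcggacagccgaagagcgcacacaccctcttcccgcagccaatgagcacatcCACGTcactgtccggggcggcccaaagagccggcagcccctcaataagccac
Slc16a3: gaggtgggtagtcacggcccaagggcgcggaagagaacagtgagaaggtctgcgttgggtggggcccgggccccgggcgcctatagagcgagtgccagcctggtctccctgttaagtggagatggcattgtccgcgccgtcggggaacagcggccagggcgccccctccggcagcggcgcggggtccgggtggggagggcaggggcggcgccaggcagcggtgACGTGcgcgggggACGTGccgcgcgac
Pgk1: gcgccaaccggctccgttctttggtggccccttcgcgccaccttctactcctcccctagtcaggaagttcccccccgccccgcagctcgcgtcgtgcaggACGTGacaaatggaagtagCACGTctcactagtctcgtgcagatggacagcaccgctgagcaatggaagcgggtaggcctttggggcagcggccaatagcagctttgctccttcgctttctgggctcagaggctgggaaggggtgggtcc
The windows lie at chr12:54203875-54204124 on the minus strand for Egln3, chr4:119108495-119108744 on the plus strand for Slc2a1, chr7:138909507-138909756 on the minus strand for Bnip3, chr6:82774455-82774704 on the minus strand for Hk2, chr11:120948817-120949066 on the plus strand for Slc16a3 and chrX:106186850-106187099 on the plus strand for Pgk1. The Bnip3 window held 5 cores, the nearest 30 bases before the start. The Egln3 window held 1 core, 224 bases before the start, and the other 4 windows held 2 each. Cores were counted on both strands with overlaps, so the palindrome CACGTG counts as 2.

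Of the 38 genes, 34 were matched in the RefSeq promoter table, with 51 promoters among them. The genes with no entry were Epas1, Slc2a3, Ndrg1 and Bnip3l. A core was present in 40 of the 51 promoters (78.4%), against 56.7% of the 11352 promoters of genes tested for expression and 38.6% of all 32851 promoters in the table. The stricter core ACGTG was present in 45.1% of the promoters of these genes, 22.0% of those of tested genes and 16.6% of all promoters. At least 1 promoter with a core was found for 31 of the 34 genes, and the first start of Ldha, the lactate dehydrogenase A gene, had 5. The count per gene was not computed for other genes, so it has no background beside it. Genes with several promoters have more chances of a match, and the 11352 promoters of tested genes belonged to 8917 genes. The 3 genes without a core in these windows were Gpi1, Tpi1 and Eno2. A match is a description of the sequence and was not tested as a binding site.

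For most of these genes CKO library 3 stood above the other 5 libraries. CKO library 3 held the highest value of the 6 libraries for 28 of the 37 genes that passed the expression filter of 1 RPKM in 3 or more libraries (75.7%), whereas it was highest for 21.1% of all 11085 genes tested. It held the lowest value for none of the 37, against 15.4% of all genes tested. The count was 17 of 23 tested glycolytic, transport and flux genes (73.9%) and 11 of 14 genes of the HIF system (78.6%). The median deviation of CKO library 3 from the mean of the 6 libraries was 0.68 on the log2(RPKM + 1) scale over the 37 genes and 0.04 over all genes tested. CKO library 3 was singled out after its values were seen, and these figures describe 1 library.

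**Figure D1:**
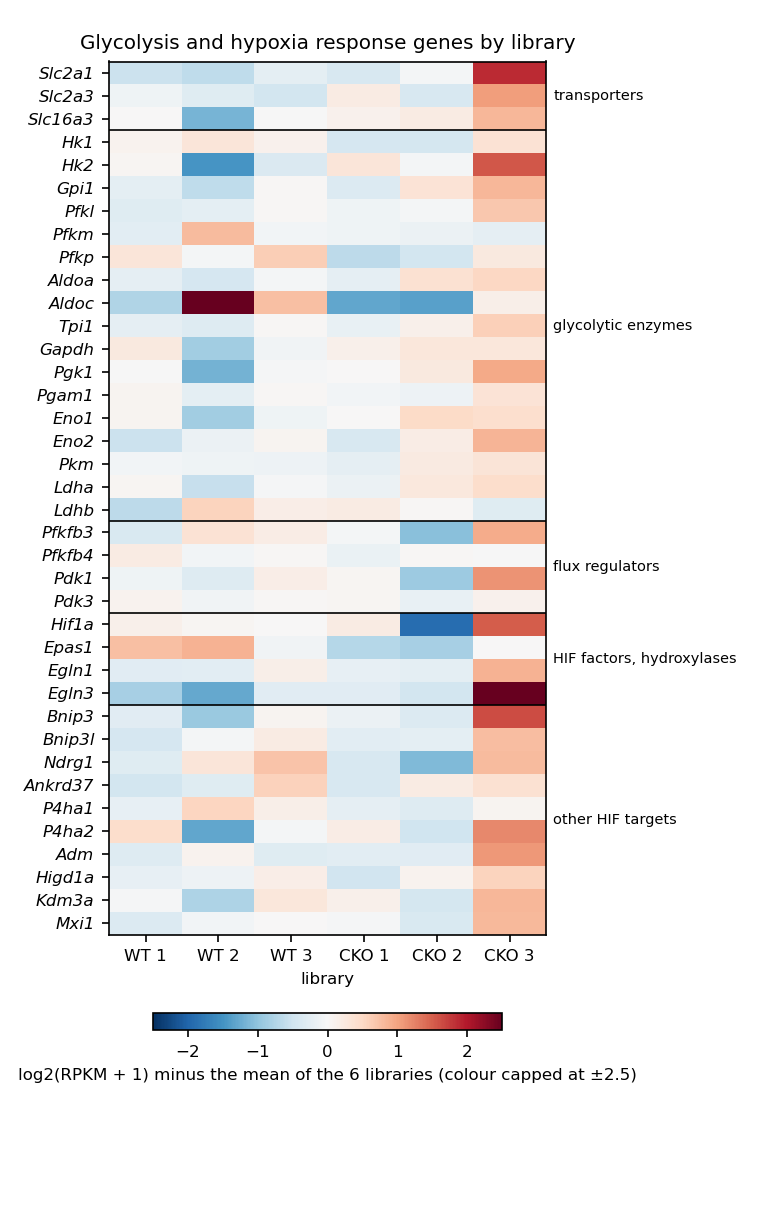
Level of each gene (rows, grouped by role) in each library (columns), as the colour-coded difference from that gene's mean over the 6 libraries on the log2(RPKM + 1) scale. The column of CKO library 3 is above the mean for most genes, with Egln3 and Slc2a1 among the strongest, while Pfkm, Ldhb and Aldoc are highest in WT library 2.

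Set against the same WT library, CKO libraries 1 and 2 lay nearer to it than CKO library 3 did for these genes. Between WT library 1 and CKO library 1 the median absolute log2 difference was 0.16 over the 37 genes, and 0.17 over all genes tested, and between WT library 1 and CKO library 2 it was 0.36 and 0.41. Between WT library 1 and CKO library 3 it was 0.84 and 0.28. Across WT libraries these ranges met, with 0.60 over the 37 genes between WT library 2 and CKO library 2 and 0.57 between WT library 3 and CKO library 3. Between CKO library 1 and CKO library 3 it was 0.83 over the 37 genes and 0.26 over all genes tested, and between CKO libraries 2 and 3 it was 0.70 and 0.45. WT library 2, the passage 7 library, held the lowest value for 15 of the 37 genes (40.5%), a share near the 36.9% of all genes tested. Among the 23 tested glycolytic, transport and flux genes it was lowest for 11 (47.8%). WT library 1 was lowest for 8 of the 37 (21.6%), against 5.1% of all genes tested. The mean log2 level of the macrophage markers was 5.23 in WT library 3 and 4.86 in CKO library 3, against 2.87 to 4.01 in the other libraries. Their sum, mostly Lyz2, was highest in CKO library 3. The stromal sum was lowest in CKO library 3 (3303 RPKM), while the mean log2 level of the 12 stromal markers was lowest in CKO library 2 (5.49, against 5.80 in CKO library 3). CKO library 3 had the lowest summed chondrocyte level (2.52 RPKM over 7 markers), against 96.0 and 143 RPKM in the other CKO libraries and 671 to 2490 RPKM in WT. WT library 2 had the highest chondrocyte sum (2490 RPKM) and the lowest cell cycle sum (54.3 RPKM). The part of these differences in either pattern was not tested.

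**Figure D2:**
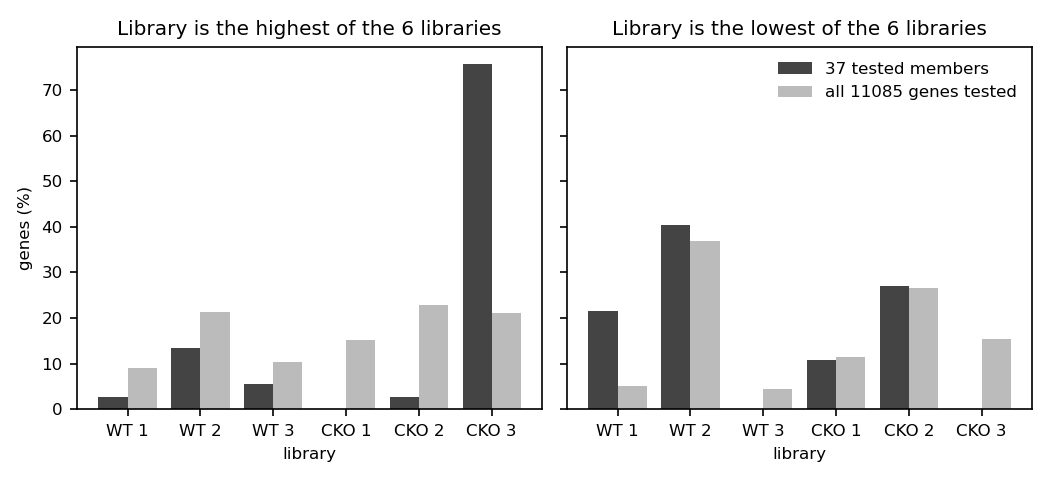
Percentage of genes (vertical axis) for which each library (horizontal axis) held the highest value of the 6 (left) or the lowest (right), for the 37 tested genes (dark bars) and all 11085 genes tested (light bars). CKO library 3 was highest for 75.7% of the 37 genes against 21.1% of all genes, while WT library 2 was lowest for 40.5% against 36.9%.

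Between genotypes, no gene of glycolysis or the HIF system passed the test. At a Benjamini-Hochberg adjusted p under 0.05 in limma's moderated test, 0 of 37 genes were called in either direction, against 1 of 11085 genes called higher in CKO (0.00902%) and none called lower (0%). At an unadjusted p under 0.05, 0 of the 37 were higher in CKO (all genes tested, 3.36%) and 1, Epas1, was lower (all genes tested, 6.39%). The WT and CKO values did not overlap for 2 genes higher in CKO, Slc16a3 and Pgk1 (all genes tested, 7.51%), and for no gene lower in CKO (all genes tested, 9.18%). Read against these shares, the genotype calls among the 37 genes were no more frequent than among all genes. A limma-voom fit on whole reads recovered from the RPKM values, added after seeing the data, called none of the 37 by adjusted p and 1 by unadjusted p.

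By sign alone, 25 of the 37 genes had a log2 difference (CKO minus WT) above 0 and 12 below 0, a share of 67.6% above 0 against 53.7% of all genes tested. The median difference was 0.27 on the log2(RPKM + 1) scale, and 0.03 over all genes tested. It was 0.34 over the 23 tested glycolytic, transport and flux genes (15 above 0, 8 below) and 0.22 over the 14 genes of the HIF system (10 above 0, 4 below). Without CKO library 3 the medians were 0.10 and −0.10, and 18 of 36 tested genes lay above 0. Without WT library 2, which leaves only passage 5, 27 of 37 genes lay above 0 and the medians were 0.21 and 0.09. With both left out, the medians were 0.08 and −0.17, and 17 of 34 tested genes lay above 0.

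**Figure D3:**
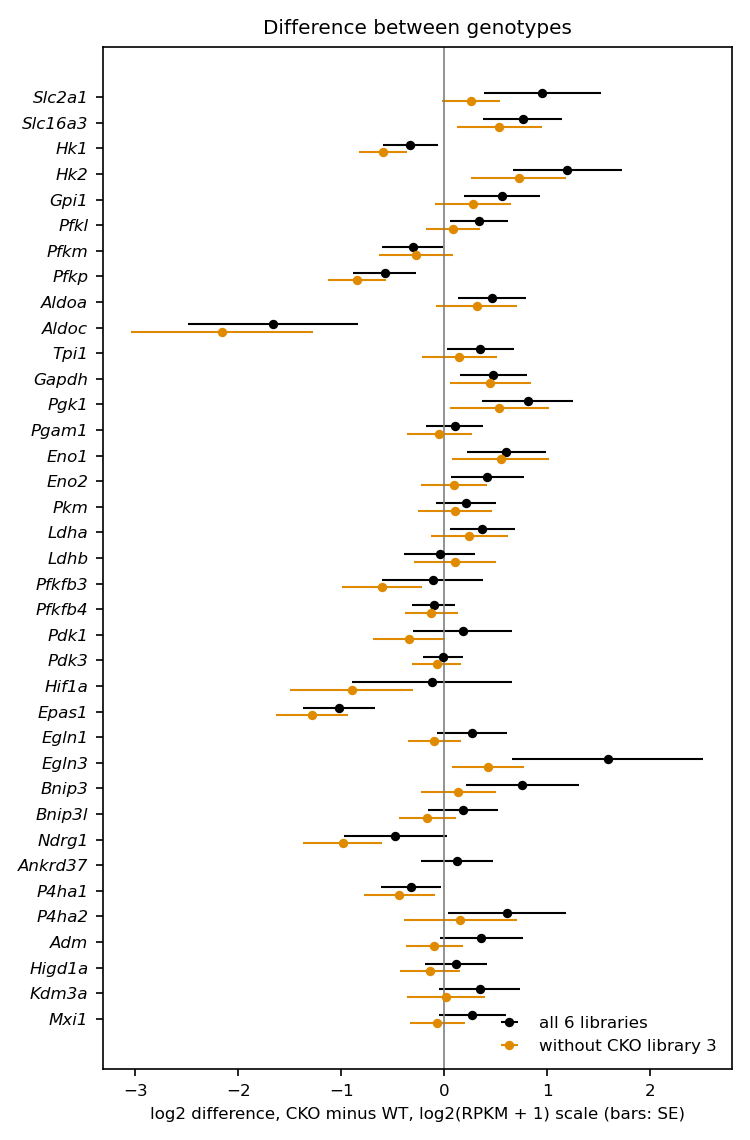
Log2 difference between genotypes (horizontal axis, CKO minus WT on the log2(RPKM + 1) scale, bars ± SE from limma) for each tested gene (vertical axis), with all 6 libraries and without CKO library 3. Egln3, Hk2 and Slc2a1 are at 1.59, 1.20 and 0.95 with all 6 libraries and at 0.42, 0.72 and 0.26 without CKO library 3.

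Among the transporters, Slc2a1 was the abundant glucose carrier and stood out in CKO library 3. Slc2a1 encodes GLUT1, the basal glucose transporter and a classical HIF-1 target. It was at 51.0, 47.5 and 63.0 RPKM in WT libraries 1 to 3 and at 56.5, 72.6 and 276 RPKM in CKO libraries 1 to 3. CKO library 3 was 3.80-fold the next highest library, while CKO library 1 lay inside the WT range. The log2 difference was 0.95 (SE 0.57, limma adjusted p = 0.614), and 0.26 without CKO library 3. Slc2a3, the gene for the high-affinity transporter GLUT3, was at 0.668, 0.462 and 0.314 RPKM across WT, against 1.07, 0.370 and 2.73 RPKM in CKO, and did not pass the filter on low values. It too was highest in CKO library 3, and it made up 0.497 to 1.86% of the summed RPKM of the pair.

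Slc16a3 encodes MCT4, the lactate exporter of glycolytic cells. It was at 48.1, 20.8 and 47.5 RPKM across WT, against 51.3, 54.9 and 85.3 RPKM in CKO. All 3 CKO values were above all 3 WT values, but CKO library 1 exceeded WT library 1 by little and WT library 2 was set far below the rest. The log2 difference was 0.76 (SE 0.38, limma adjusted p = 0.575), 0.37 within passage 5 and 0.53 without CKO library 3.

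The hexokinases, which trap glucose in the cell by phosphorylating it, differed in their pattern. Hk2, the isozyme induced by HIF-1 and insulin, was at 10.6, 3.00 and 7.65 RPKM across WT, against 12.7, 9.81 and 31.6 RPKM in CKO. CKO library 3 was highest and WT library 2 lowest, and CKO library 2 lay inside the WT range. The log2 difference was 1.20 (SE 0.53, limma adjusted p = 0.533), 0.75 within passage 5 and 0.28 with WT library 2 and CKO library 3 both left out. Hk1, the constitutive isozyme, was at 25.7, 30.1 and 26.0 RPKM across WT, against 17.7, 17.6 and 31.2 RPKM in CKO. CKO libraries 1 and 2 were below all WT libraries and CKO library 3 was above them, with a log2 difference of −0.33 (SE 0.27, adjusted p = 0.695).

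Gpi1, which turns glucose 6-phosphate into fructose 6-phosphate, was at 120, 91.2 and 145 RPKM across WT, against 112, 179 and 254 RPKM in CKO. The phosphofructokinase genes encode the subunits of the main rate-setting enzyme. Pfkl, the liver-type subunit, was the most abundant at 43.3, 44.9 and 54.8 RPKM across WT, against 49.3, 51.4 and 86.1 RPKM in CKO. Pfkp, the platelet-type subunit, was at 18.9, 14.6 and 23.6 RPKM across WT, against 9.17, 10.7 and 18.1 RPKM in CKO, where only CKO library 3 reached the WT range. Its log2 difference of −0.58 (SE 0.30, limma adjusted p = 0.586) was −0.85 without CKO library 3. Pfkm, the muscle-type subunit, was at 12.8, 27.6 and 14.8 RPKM across WT, against 13.2 to 14.4 RPKM in CKO, so WT library 2 alone was high. Its log2 difference of −0.31 (SE 0.30) became 0.01 without WT library 2.

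Isozyme make-up was described in 12 families, and in 3 of them, the hexokinases, the phosphofructokinases and the prolyl hydroxylases, the share of a member did not overlap between genotypes. In the other 9 all shares overlapped. How often shares of other gene pairs do not overlap was not computed, so this count has no background beside it. For levels of single genes, 7.51% of all genes tested did not overlap with CKO higher and 9.18% with CKO lower. The prolyl hydroxylase shares parted narrowly, with Egln3 at 8.19% in WT library 3 and 9.09% in CKO library 2. Hk1 made up 70.7, 90.9 and 77.3% of the summed hexokinase RPKM across WT, against 58.2, 64.3 and 49.7% in CKO, with means of 79.6 ± 10.3% and 57.4 ± 7.34% (SD, n = 3). Pfkl made up 57.7, 51.6 and 58.8% of the phosphofructokinases in WT and 67.7, 67.5 and 73.3% in CKO, with means of 56.0 ± 3.92% and 69.5 ± 3.30% (SD, n = 3). Pfkp made up 22.4 ± 4.94% in WT and 14.0 ± 1.42% in CKO (SD, n = 3), again with no overlap, and Pfkm 21.5 ± 8.84% and 16.5 ± 4.56%, with overlap. Shares are ratios of RPKM, which is scaled to the gene length the authors used, and they were described without a test. An exact permutation test of 3 libraries against 3 cannot go below p = 0.1. With WT library 2 and CKO library 3 left out, the difference in share was −12.8 percentage points for Hk1, against −22.3 with all libraries, and 9.31 against 13.5 for Pfkl.

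**Figure D4:**
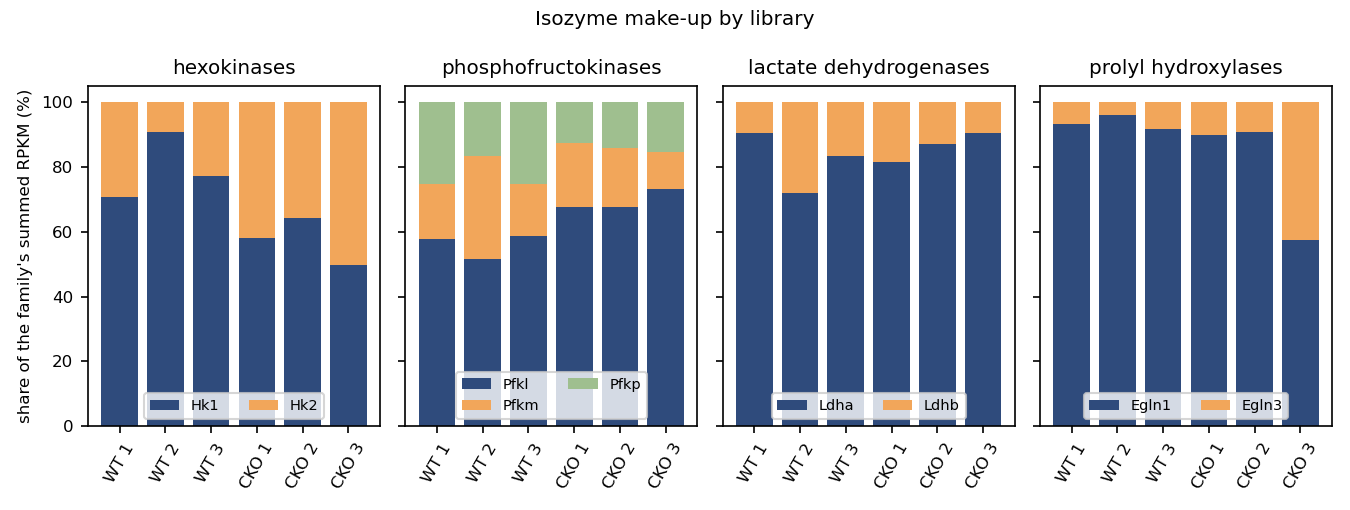
Share of the summed RPKM of 4 isozyme families (vertical axis, %) held by each member, in each library (horizontal axis). The Hk1 share is 70.7 to 90.9% in WT and 49.7 to 64.3% in CKO, the Pfkl share is 51.6 to 58.8% in WT and 67.5 to 73.3% in CKO, and the Egln3 share is 42.4% in CKO library 3 and 3.86 to 10.2% elsewhere.

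The genes of the steps from aldolase to lactate were among the most abundant and were mostly lowest in WT library 2 and highest in CKO library 3. Aldoa, the main aldolase, was at 442, 381 and 498 RPKM across WT, against 440, 673 and 738 RPKM in CKO. Tpi1, which interconverts the triose phosphates, was at 395, 372 and 472 RPKM across WT, against 406, 509 and 697 RPKM in CKO. Their log2 differences were 0.46 (SE 0.33) and 0.35 (SE 0.33), with limma adjusted p of 0.665 and 0.733. Pgk1, which makes the first ATP of the pathway and is a classical HIF-1 target, was at 482, 214 and 476 RPKM across WT, against 487, 577 and 938 RPKM in CKO. The groups did not overlap, yet WT libraries 1 and 3 and CKO library 1 lay close together. Its log2 difference of 0.81 (SE 0.44, adjusted p = 0.594) was 0.42 within passage 5 and 0.15 with WT library 2 and CKO library 3 both left out. Of the genes of these steps, Tpi1, Pgk1, Gapdh, Pgam1 and Ldhb fall in the shortest of the 5 length classes. The median deviation of that class in CKO library 2 was 0.37, and its part in their values was not tested.

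Eno1, the main enolase, had the highest level of all these genes in RPKM, at 1020, 532 and 899 RPKM across WT, against 978, 1351 and 1295 RPKM in CKO. Its log2 difference was 0.60 (SE 0.38, limma adjusted p = 0.631). Ldha, which turns pyruvate into lactate, was at 257, 166 and 243 RPKM across WT, against 222, 300 and 336 RPKM in CKO, with a difference of 0.37 (SE 0.31, adjusted p = 0.712). The genotype ranges overlapped for both genes. Pkm, the pyruvate kinase gene, was at 367 to 385 RPKM across WT, against 343 to 506 RPKM in CKO. Gapdh, the glyceraldehyde phosphate dehydrogenase often used as a reference gene, was at 112, 51.3 and 89.4 RPKM across WT, against 104, 115 and 116 RPKM in CKO, so it was not level across these libraries. Pgam1, the phosphoglycerate mutase, ranged from 166 to 251 RPKM with a difference of 0.10 (SE 0.27).

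Ldhb, Aldoc and Eno2, the less abundant partners of these enzymes, did not share that pattern in full. Ldhb, the lactate dehydrogenase subunit of oxidative tissues, was at 27.0, 64.6 and 48.7 RPKM across WT, against 50.4, 44.3 and 34.7 RPKM in CKO. Its partner Ldha made up 72.0% of the pair in WT library 2 and 81.5 to 90.6% in the other 5 libraries. Aldoc, the brain-type aldolase, was at 1.24, 20.1 and 5.32 RPKM across WT, against 0.533, 0.468 and 3.18 RPKM in CKO. WT library 2 was far above the rest, and the log2 difference of −1.66 (SE 0.82, limma adjusted p = 0.569) was −0.84 within passage 5. Eno2, the neuronal enolase and a HIF target, was at 2.38 to 4.14 RPKM across WT, against 2.71, 4.58 and 7.92 RPKM in CKO.

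Many of these enzyme genes, and some of the HIF targets, have near-identical copies that could share reads, since the handling of such reads is not stated in the labels. At an identity of at least 95% over at least 100 bases, other GENCODE transcripts covered 94.2% of the longest coding transcript of Bnip3 (5 other genes, 3 of them pseudogenes), 88.0% of that of Gapdh (77 pseudogenes), 85.6% of Eno1, 76.8% of Ldhb, 68.8% of Pgk1, 65.5% of Pkm, 55.3% of Gpi1, 55.0% of Ldha, 43.5% of Higd1a, 43.1% of Pgam1 and 34.7% of Bnip3l. For Egln3, Slc2a1, Hk1, Hk2, Pfkl and Slc16a3 the share was at most 3.7%. Levels of the first set are therefore uncertain. A level per length also rests on the length used for scaling, which for Ldha was 5342 bases, against 1815 bases for its longest coding GENCODE transcript. For Pkm it was 6119 against 2432 bases, and for Pdk3 11504 against 2115 bases. Rankings of genes by RPKM, such as Eno1 above Pkm, rest on these lengths.

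The flux regulators showed no common direction between genotypes. Pfkfb3, which makes the phosphofructokinase activator fructose 2,6-bisphosphate, was at 6.94, 12.4 and 10.8 RPKM across WT, against 8.94, 4.01 and 18.7 RPKM in CKO. Pdk1, a HIF target that blocks pyruvate dehydrogenase, was at 13.6, 11.7 and 16.8 RPKM across WT, against 15.4, 7.39 and 33.5 RPKM in CKO. Both were lowest in CKO library 2 and highest in CKO library 3, so the CKO libraries spanned the WT range on both sides. Both genes fall in the longest of the 5 length classes, in which CKO library 2 was low overall (median −0.37). The log2 differences were −0.11 (SE 0.49) for Pfkfb3 and 0.18 (SE 0.48) for Pdk1, with limma adjusted p of 0.951 and 0.916. Pfkfb4, a second isozyme, and Pdk3, another pyruvate dehydrogenase kinase, stayed within 1.69 to 2.51 RPKM and 6.14 to 7.73 RPKM.

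Hif1a varied little within WT and widely within CKO. Hif1a encodes HIF-1α. It was at 122, 115 and 112 RPKM across WT, against 129, 29.2 and 319 RPKM in CKO. CKO library 1 lay close to WT, CKO library 2 was below every WT library and CKO library 3 above every one, with the log2 difference at −0.12 (SE 0.78, limma adjusted p = 0.969). It was −0.90 without CKO library 3 and 0.80 without CKO library 2. Hif1a falls in the length class of 4091 to 6147 bases, whose median deviation in CKO library 2 was −0.20. At least 2805 reads stood behind each value, so counting error is small beside this spread.

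Epas1, the gene for HIF-2α, was at 3.29, 3.66 and 1.41 RPKM across WT, against 0.563, 0.429 and 1.58 RPKM in CKO. CKO library 3 lay above WT library 3, so the groups overlapped. The log2 difference was −1.02 (SE 0.35), with an unadjusted limma p of 0.0216 and an adjusted p of 0.406. It was −1.28 without CKO library 3 and −0.84 within passage 5. The unadjusted p was above 0.05 when either of WT libraries 1 and 2 or either of CKO libraries 1 and 2 was left out, and also with WT libraries 1 and 2, which share an animal label, merged (0.0614) or with the replicate block (0.0523). Hif1a made up 96.9 to 99.6% of the summed RPKM of the pair.

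The prolyl hydroxylases that act on HIF-α differed most between libraries in Egln3. Egln3 encodes PHD3, which HIF itself induces. It was at 1.80, 1.04 and 3.09 RPKM across WT, against 3.06, 2.61 and 42.3 RPKM in CKO. CKO library 3 was 13.7-fold the next highest library, and the other CKO libraries lay inside the WT range. The log2 difference of 1.59 (SE 0.93, limma adjusted p = 0.607) was 0.42 without CKO library 3. Egln1, the gene for the main oxygen sensor PHD2, was at 25.5, 25.8 and 34.7 RPKM across WT, against 26.8, 26.1 and 57.5 RPKM in CKO. Egln3 thus made up 42.4% of the pair in CKO library 3 and 3.86 to 10.2% in the other 5 libraries.

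**Figure D5:**
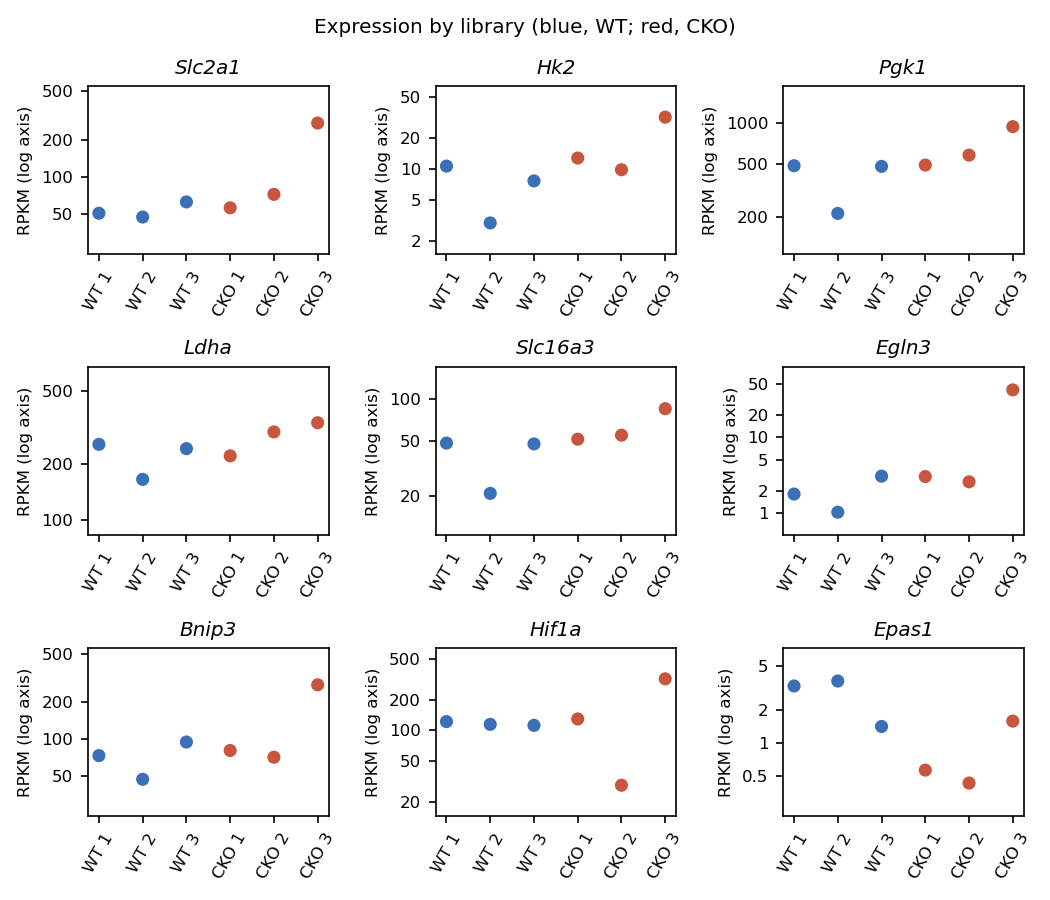
RPKM (log axis) in each library for 9 of the genes, WT in blue and CKO in red. CKO library 3 is the highest in 8 of the 9 panels, with Egln3 at 42.3 RPKM against 1.04 to 3.09 RPKM elsewhere, and Epas1 is highest in WT library 2 at 3.66 RPKM.

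Among the other HIF targets, the mitophagy genes followed the same library. Bnip3, whose protein recruits the autophagy machinery to mitochondria, was at 73.5, 47.0 and 94.9 RPKM across WT, against 80.9, 71.3 and 279 RPKM in CKO. Bnip3l, its relative, was at 20.8, 27.1 and 32.7 RPKM across WT, against 23.4, 23.5 and 49.0 RPKM in CKO. For both genes CKO libraries 1 and 2 lay inside the WT range and CKO library 3 above it. Both levels are uncertain because of the near-identical copies. The log2 differences were 0.76 (SE 0.55) and 0.18 (SE 0.34), with limma adjusted p of 0.67 and 0.873, and 0.14 and −0.16 without CKO library 3.

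The collagen prolyl 4-hydroxylase subunits, which hydroxylate collagen so that its helix is stable, did not move together. P4ha2 was at 182, 54.0 and 129 RPKM across WT, against 153, 95.2 and 311 RPKM in CKO, with CKO library 3 highest and WT library 2 lowest. P4ha1 was at 118, 199 and 152 RPKM across WT, against 117, 108 and 144 RPKM in CKO, with WT library 2 highest. P4ha1 thus made up 78.6% of the pair in WT library 2 and 31.6% in CKO library 3.

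Adm, the gene for the vasodilator peptide adrenomedullin, was at 57.5, 76.6 and 58.1 RPKM across WT, against 59.6, 59.1 and 154 RPKM in CKO. Mxi1, a MYC antagonist, was at 5.43, 6.80 and 7.21 RPKM across WT, against 7.05, 5.27 and 13.4 RPKM in CKO. Kdm3a, a histone demethylase, was at 9.10, 5.06 and 11.6 RPKM across WT, against 10.3, 6.59 and 17.3 RPKM in CKO. In each of these CKO library 3 was the highest, at 1.49-fold to 2.01-fold the next library. Higd1a, a mitochondrial protein gene, ranged from 27.7 to 57.5 RPKM with the same library highest. Ndrg1, a stress-induced gene, was at 22.8, 35.0 and 46.6 RPKM across WT, against 21.2, 12.6 and 49.4 RPKM in CKO, so CKO libraries 1 and 2 were below all WT libraries and CKO library 3 was slightly above WT library 3. Ankrd37, a small HIF target, was at 0.479 to 2.03 RPKM and rested on 17 to 72 reads, and CKO library 3 was not its highest.

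Other genes of these pathways, taken from 4 further lists, were also described. CKO library 3 was the highest library for 20 of 34 tested further HIF targets (58.8%, against 21.1% of all genes tested), with a median log2 deviation from the mean of the 6 libraries of 0.80. It was highest for 4 of 21 other glycolysis and pentose phosphate genes (19.0%), 1 of 14 pyruvate entry genes (7.1%) and 1 of 10 other HIF pathway genes (10.0%). Of 21 tested glycolysis and pentose phosphate genes, 11 lay above 0 and 10 below, with a median log2 difference of 0.05, and none reached an unadjusted p under 0.05. The lowest p values there belonged to Slc2a10, a glucose transporter gene (−0.60), Slc16a7, the MCT2 gene (−0.43), G6pdx, the entry enzyme of the pentose phosphate pathway (−0.37), and Adpgk, the ADP-dependent glucokinase (0.40). For 1 of the 21, G6pdx, all CKO values were below all WT values (all genes tested, 9.18%). For 0 of the 21 were they all above (all genes tested, 7.51%). Of 14 genes of pyruvate entry into mitochondria, 6 lay above and 8 below 0, with a median of −0.13 and 2 at an unadjusted p under 0.05, both lower in CKO (all genes tested, 6.39%). These were Pdp1, the phosphatase that activates pyruvate dehydrogenase, and Pdk2, a kinase that inhibits it. Pdp1 was at 6.25, 32.0 and 35.9 RPKM across WT, against 4.29, 2.40 and 2.89 RPKM in CKO, with a log2 difference of −2.33 (SE 0.61, limma adjusted p = 0.305). Pdk2 was at 5.05, 11.9 and 7.86 RPKM across WT, against 4.05 to 4.20 RPKM in CKO (−0.78, adjusted p = 0.452). Pcx, the pyruvate carboxylase gene (−1.17), and Mpc1, a mitochondrial pyruvate carrier subunit (−0.34), had the next lowest p values. For 3 of the 14 genes, Pdp1, Pdk2 and Pcx, all CKO values were below all WT values (all genes tested, 9.18%). For 0 of the 14 were they all above (all genes tested, 7.51%).

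Of 10 tested genes of the HIF pathway outside the 38, none reached an unadjusted p under 0.05. Arnt, the gene for the HIF-1β partner subunit, was at 14.9 to 18.9 RPKM across WT, against 10.3 to 19.0 RPKM in CKO, with no peak in CKO library 3. Hif1an, the gene for the asparaginyl hydroxylase FIH, was at 6.74 to 9.49 RPKM across WT, against 4.99 to 6.84 RPKM in CKO. Egln2, the gene for PHD1, was at 15.9 RPKM in CKO library 3 and 17.1 to 30.3 RPKM elsewhere, unlike its relatives Egln1 and Egln3. Rack1 (0.82) and Os9 (−0.32), which encode HIF-1α binding proteins, were the others with low p values, at adjusted p of 0.584 and 0.704 in limma. For 1 of the 10 genes, Rack1, all CKO values were above all WT values (all genes tested, 7.51%). For 0 were they all below (all genes tested, 9.18%).

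Of 34 tested further HIF targets, 22 lay above 0 and 12 below, with a median log2 difference of 0.26, and 4 were higher and 2 lower in CKO at an unadjusted p under 0.05 (all genes tested, 3.36% and 6.39%). The higher ones were Vegfa, Edn1, Ddit4 (0.78) and Pgm2 (0.66), the last pair named after their values were seen, and the lower ones were Plod1 and Cox4i2. Of the 34, the genotype groups did not overlap for 6 genes higher and 2 lower in CKO (all genes tested, 7.51% and 9.18%). Vegfa, the main angiogenic growth factor, was at 43.2, 15.4 and 31.0 RPKM across WT, against 56.5, 61.2 and 156 RPKM in CKO. All CKO values were above all WT values, and the log2 difference was 1.53 (SE 0.50, limma adjusted p = 0.379), 1.13 within passage 5 and 1.07 without CKO library 3. Edn1, the endothelin-1 gene, was at 2.10, 0.316 and 0.539 RPKM across WT, against 3.70, 7.15 and 7.03 RPKM in CKO (1.87, adjusted p = 0.258), with no overlap and no peak in CKO library 3. Plod1, a collagen lysyl hydroxylase, was at 86.2 to 122 RPKM in WT and, with no overlap, at 49.6 to 68.6 RPKM in CKO (−0.80, adjusted p = 0.378). Cox4i2, the hypoxia-linked isoform of a cytochrome oxidase subunit, was at 6.10, 35.0 and 18.5 RPKM across WT, against 1.23, 0.427 and 7.52 RPKM in CKO (−2.51, adjusted p = 0.376). Ero1a, an oxidase of the endoplasmic reticulum and another HIF target, reached 211 RPKM in CKO library 3 and 14.8 to 34.9 RPKM in the other 5 libraries, and was chosen for mention because of these values.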

How the data were processed

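RNA from 6 cultures was sequenced after TruSeq stranded mRNA preparation, per the labels' protocols. The authors deposited 1 RPKM value per gene and library. The unit is not named in the file headers and was inferred, since whole reads were recovered for 15062 of 15063 genes (99.99%), within 0.01 read or a relative error of 1e-07, and for 0 of 500 genes with shuffled values. Library totals were 17351907 to 20689481, which limits precision at low RPKM. Per the submitters' processing notes, the genome build was mm9. Aligner, counting, annotation and strand use: not given in the sources used here, so overlapping genes may share reads.

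log2(RPKM + 1) was tested with limma 3.58.1 (R 4.3.3; trend, robust, genotype only, two-sided) in the 11085 genes that reached an RPKM of 1 in 3 or more of the 6 libraries, with Benjamini-Hochberg adjustment and a threshold of 0.05. This scale understates differences of low genes. The fit was tested on simulated data with independent noise of the same SD for every gene and no outlying library. That test does not measure power in these data. Alternatives were other filters, a pseudocount of 0.1, median centring, quantile normalization, limma without trend and robust moderation, merging WT libraries 1 and 2, a replicate block, leaving out each library, and, added after seeing the data, leaving out WT library 2 with CKO library 3 and limma-voom on recovered reads. Promoters came from RefSeq (GRCm38.p6) and copies from GENCODE M21 with blastn 2.17.0.

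The genes and lists were chosen with earlier results of these data known. Named besides the 38 genes were Mapk7, Vegfa, Arnt and up to 4 genes per further list with the lowest p. Ddit4, Pgm2, Ero1a and Lyz2 were named after their values were seen.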

Additional observations from a re-analysis of the deposited data

How the results depend on the processing

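No gene of glycolysis or the HIF system passed an adjusted p under 0.05 under any of the 16 alternatives, and the lowest adjusted p was 0.227 (without WT library 1, limma). Of 580 differences recomputed, 546 kept their sign and 34 turned, and 20 of the 37 genes never turned. Over all genes, the 1 call higher in CKO became 0 with no filter, a pseudocount of 0.1, the replicate block, voom or WT library 2 and CKO library 3 both left out, 2 with median centring or quantile normalization, 8 with WT libraries 1 and 2 merged, and 0 to 8 with 1 library left out. Calls lower in CKO went from 0 to 3 with a filter at RPKM 5, 42 with the merge, and 0 to 16 with 1 library left out. Among the 37 genes, those higher at an unadjusted p under 0.05 went from 0 to 1 with either centring (Hk2), 2 with the replicate block (Egln3 and Hk2) and 0 to 1 with 1 library left out, and those lower went from 1 to 0 with the filter at RPKM 5 and 0 to 5 with 1 library left out, the 5 being Aldoc, Epas1, Hk1, Ndrg1 and Pfkp without CKO library 3. The unadjusted calls lower in CKO stayed at 1 with the merge and the block, but the gene was Aldoc with the merge and Pfkp with the block, in place of Epas1. The median of the glycolytic, transport and flux genes was 0.14 with quantile normalization, 0.085 with WT library 2 and CKO library 3 both left out and 0.10 to 0.48 with 1 library left out, and that of the HIF system −0.17 and −0.098 to 0.53. With both left out, the sign turned for Pfkm (0.044), Pgam1 (−0.15), Ldhb (0.37), Pdk1 (−0.46), Egln1 (−0.16), Bnip3 (−0.14), Bnip3l (−0.15), P4ha2 (−0.34), Higd1a (−0.18), Kdm3a (−0.28) and Mxi1 (−0.033), and differences in share were −12.8 percentage points for Hk1, 9.31 for Pfkl, 2.63 for Pfkm, 0.19 for Bnip3 and 1.53 for P4ha1. Quantile normalization turned Pgam1 (−0.0042), Pkm (−0.062) and Pdk3 (0.018), median centring Pdk3 (0.012), and the merge Ankrd37 (−0.032). With 1 library left out the differences ranged −0.52 to 0.013 for Pfkm, −0.048 to 0.19 for Pgam1, −0.39 to 0.23 for Ldhb, −0.61 to 0.38 for Pfkfb3, −0.34 to 0.68 for Pdk1, −0.075 to 0.071 for Pdk3, −0.90 to 0.80 for Hif1a, −0.098 to 0.46 for Egln1, −0.16 to 0.35 for Bnip3l, −0.074 to 0.36 for Ankrd37, −0.097 to 0.59 for Adm, −0.14 to 0.38 for Higd1a and −0.067 to 0.53 for Mxi1. The cause was not tested. Deviations from the genotype means correlated at 0.198, 0.014 and −0.019 between same-numbered libraries, and at −0.23 to 0.206 between differently numbered ones. With group means of 3 libraries each, these values cannot decide whether the numbers pair libraries. Aldoc, Epas1 and Ankrd37 fell below the filter in some of these fits and have no value there. At low RPKM, as for Ankrd37 and Slc2a3, depth limits what can be detected.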
